A study of Mus musculus with 12 samples.

Results

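Sialyltransferases are enzymes of the Golgi that add sialic acid to the ends of sugar chains on proteins and lipids. They take CMP-sialic acid as the donor and are named for the bond they make, an α2,3 or α2,6 bond to galactose, an α2,6 bond to N-acetylgalactosamine, or an α2,8 bond to another sialic acid. The caps they build are read by selectins, galectins and Siglecs on blood and endothelial cells. St6gal1 encodes the main enzyme for the α2,6 bond on N-glycans. The genes described here are 10 members of this family, St6gal1, the 6 genes of the St3gal group, St6galnac4, St6galnac6 and St8sia4, of 33531 genes in the expression table. The members were taken by gene symbol, and St6gal1 was chosen by its measured values: it was the 1 gene of 391 called in both comparisons of cluster cells with endothelium whose direction was opposite in the GFP+ and the GFP− cells. Those values are therefore a description for St6gal1, with no test.

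RNA was sequenced from arterial cells of mouse embryos at embryonic day 11.5, on a B6129S background (C57BL/6 x 129S1/SVImJ F1 mothers, Tg(Ly6a-GFP) fathers). All 122 embryos carried Ly6a-GFP, a transgene that reports activity of Ly6a (Sca-1), so every population comes from transgenic embryos. Hematopoietic cluster cells (HC) were sorted as CD31+ CD144+ ESAM+ c-Kit+ and endothelial cells (EC) as CD31+ CD144+ ESAM+ c-Kit-, from the dorsal aorta with the umbilical and vitelline arteries. The 4 populations were HC GFP+ (53000 cells), HC GFP− (413000 cells), EC GFP+ (377000 cells) and EC GFP− (791000 cells), each pooled over embryos into 3 biological samples. Levels are FPKM, fragments scaled to transcript length and library size, which allow genes of different length to be compared but keep no read number, so the depth is unknown. Differences are on the log2(FPKM + 1) scale with the standard error (SE) of a limma fit over the 12 libraries, and a gene was called at an adjusted p of 0.05 over all 13278 tested genes.

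The libraries had summed FPKM of 555675 to 691948, highest in the EC GFP− libraries, where mitochondrial genes took 8.53 to 8.76% of the sum against 3.8 to 6.47% in the other 9. Markers followed the sorts in part: Ly6a averaged 5.83 FPKM in HC GFP+, 0.768 in HC GFP−, 8.76 in EC GFP+ and 0.896 in EC GFP−, and Kit 35.5, 21.4, 14 and 16.3 FPKM in the same order. The 10 blood markers summed to 334 to 612 FPKM in HC GFP+, 116 to 249 in HC GFP−, 75.8 to 87.1 in EC GFP+ and 46.7 to 59.4 in EC GFP−, while the 10 endothelial markers summed to 2484 to 2795 FPKM in HC GFP+, 2115 to 2847 in HC GFP−, 3694 to 3851 in EC GFP+ and 2276 to 2811 in EC GFP−. HC of both kinds thus carried endothelial transcripts, and EC carried Kit. Transcripts of other cells varied too. The 9 measured erythroid markers summed to 822 to 1139 FPKM in HC GFP+, 6227 to 9549 in HC GFP−, 931 to 2373 in EC GFP+ and 3288 to 7627 in EC GFP−, and the 9 measured macrophage markers to 285 to 1710 in HC GFP+, 285 to 936 in HC GFP−, 13 to 41.2 in EC GFP+ and 15.1 to 22.8 in EC GFP−. In such bulk samples, fewer cells of a type and less RNA per cell cannot be told apart.

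St6gal1 was the most abundant member in 3 of the 4 populations. It stood at 41.1, 38.1 and 46.6 FPKM in the HC GFP+ libraries, 31, 27.9 and 30.3 in HC GFP−, 58.6, 54 and 55.7 in EC GFP+, and 20.4, 23 and 17.9 in EC GFP−. The order of the means was EC GFP+ (56.1 ± 2.31 FPKM, SD, n = 3), HC GFP+ (41.9 ± 4.27), HC GFP− (29.8 ± 1.61) and EC GFP− (20.4 ± 2.59), and no library of any population overlapped with one of the next. HC thus lay between the 2 kinds of EC. HC GFP+ had 0.748 times the mean of EC GFP+ (difference −0.41 on the log2 scale), whereas HC GFP− had 1.46 times the mean of EC GFP− (difference 0.53). The same 12 values give a GFP+ over GFP− ratio of 1.41 in HC (difference 0.48) and 2.74 in EC (difference 1.42). The erythroid markers were lower in both GFP+ populations, where St6gal1 was higher, and the mitochondrial share was highest in EC GFP−, where St6gal1 was lowest. The summed endothelial markers were highest in EC GFP+, as St6gal1 was, and those of the other 3 populations overlapped. Their part in the St6gal1 levels was not tested.

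**Figure D1:**
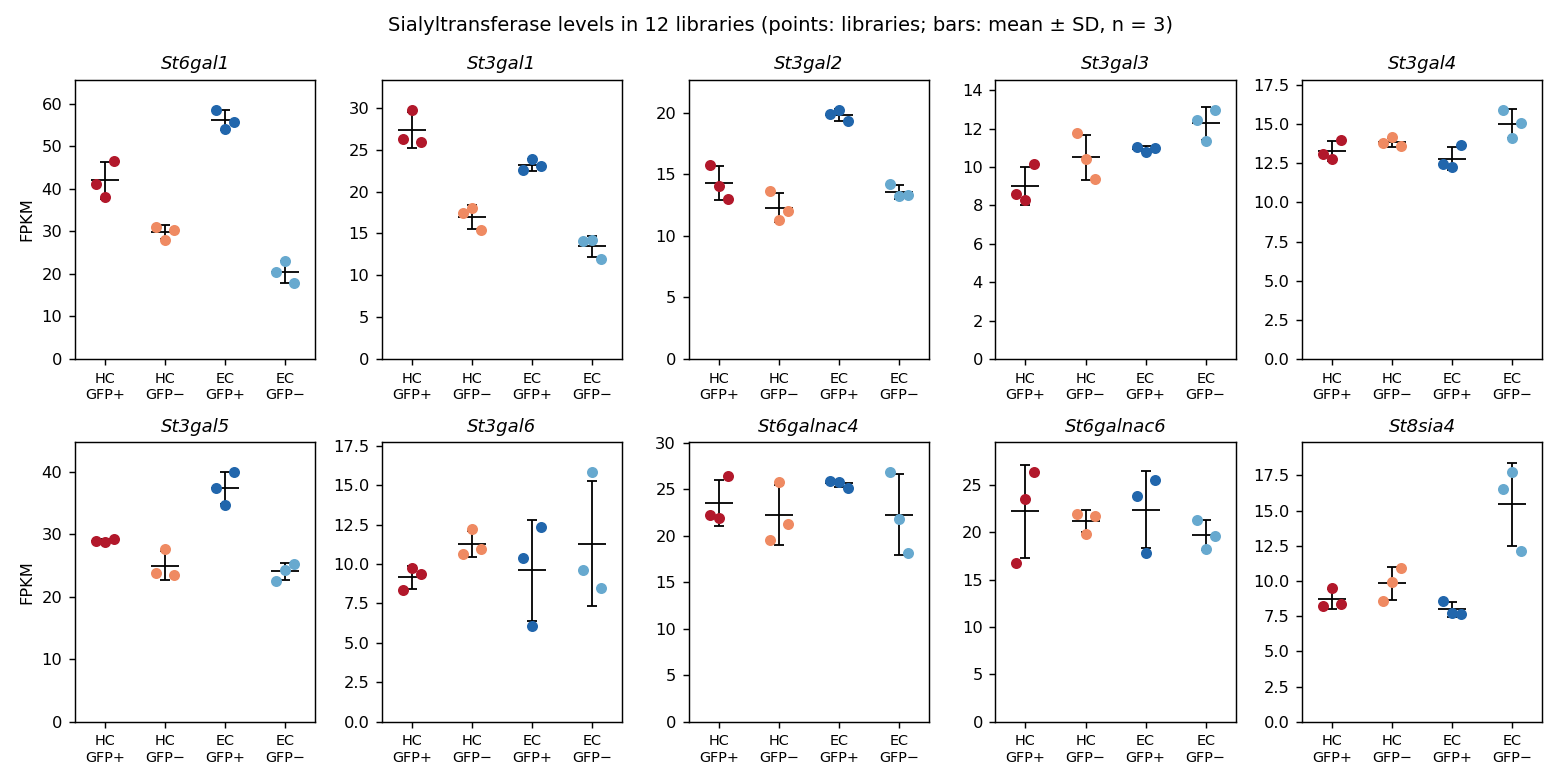
FPKM of each of the 10 sialyltransferases (vertical axes from 0) in the 4 sorted populations; points are libraries, and bars the mean ± SD of 3. St6gal1 forms 4 separate groups, highest in EC GFP+ (54 to 58.6 FPKM) and lowest in EC GFP− (17.9 to 23 FPKM), and St8sia4 is highest in EC GFP− (12.1 to 17.7 FPKM).

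Liver and B cells are known sources of St6gal1, and their markers were examined. The 10 markers of liver and yolk sac endoderm summed to 32 to 101 FPKM in HC GFP+, 44 to 48.5 in HC GFP−, 18.2 to 58.9 in EC GFP+ and 27.6 to 37.9 in EC GFP−. The 2 GFP+ ranges overlapped, while the HC GFP− range lay above that of EC GFP−, as did St6gal1, and its part in that difference was not tested. The 10 B and T cell markers, of which 2 passed the filter on low values, summed to 31.5 to 40.3 FPKM in HC GFP+, 41.1 to 51.9 in HC GFP−, 24.3 to 32.1 in EC GFP+ and 29.3 to 31.6 in EC GFP−. Here too the HC GFP− range lay above that of EC GFP−. The sum rests mainly on the 2 that passed, Cd79b and Lck, so it is not a reading of B cells alone. Cd79b was higher in HC GFP+ than in EC GFP+ (0.95, adjusted p = 0.00829), whereas Lck did not pass there (0.18, adjusted p = 0.464). Between HC GFP+ and HC GFP− these 2 genes had opposite signs, 0.52 for Cd79b and −0.55 for Lck, and neither passed. Cd3e was at 0 in all 12 libraries, and Pax5 in all EC libraries. The part of such cells was not tested.

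The rule that singled out St6gal1 had close neighbours. The nearest genes outside it, with opposite signs in the 2 comparisons but a larger adjusted p of 0.0618 and 0.0712, were Sptb, the erythroid β-spectrin gene, and Fbn2, which encodes the matrix protein fibrillin-2. Sptb averaged 0.544 FPKM in HC GFP+, 3.95 in HC GFP−, 1.19 in EC GFP+ and 1.59 in EC GFP−, an order that differs from that of St6gal1. Fbn2 averaged 21.7 FPKM in HC GFP+, 24.3 in HC GFP−, 30.9 in EC GFP+ and 17.4 in EC GFP−, so that both HC means again lay between the 2 EC means. With other settings of the fit the rule held for 0 to 4 genes.

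St6gal1 has several promoters, and RefSeq gives it 3 starts. The FPKM is 1 value per gene and does not tell them apart. The 250 bases before each start (build GRCm38.p6, whereas the expression table was made with mm9) are shown because transcripts from any of these starts would count towards the single value. Capitals mark matches to short motifs of blood and endothelial regulators on either strand, GATAA for GATA factors, GGAAGT for ETS factors and TGTGGT for RUNX factors.
Start 1, chr16:23224490-23224739, strand +: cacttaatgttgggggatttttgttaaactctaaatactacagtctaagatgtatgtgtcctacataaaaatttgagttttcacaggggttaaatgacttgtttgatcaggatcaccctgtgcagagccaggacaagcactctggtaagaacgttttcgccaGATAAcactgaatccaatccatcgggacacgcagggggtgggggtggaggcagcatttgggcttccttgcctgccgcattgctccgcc
Start 2, chr16:23225771-23226020, strand +: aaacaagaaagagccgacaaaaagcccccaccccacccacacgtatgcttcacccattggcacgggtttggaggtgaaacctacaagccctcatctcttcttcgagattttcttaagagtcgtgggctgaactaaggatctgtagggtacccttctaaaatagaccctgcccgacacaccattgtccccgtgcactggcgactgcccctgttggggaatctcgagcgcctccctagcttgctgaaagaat
Start 3, chr16:23290220-23290469, strand +: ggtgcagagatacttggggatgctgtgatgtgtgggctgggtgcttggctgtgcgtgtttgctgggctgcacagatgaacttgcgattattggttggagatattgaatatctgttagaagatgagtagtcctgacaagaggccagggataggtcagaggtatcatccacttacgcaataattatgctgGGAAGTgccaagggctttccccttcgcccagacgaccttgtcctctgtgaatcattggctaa
The first window held 1 GATA match and the third 1 ETS match; none held the RUNX letters, and no match overlapped another. Over 32851 windows of this length, 22.6% held the GATA letters, 19.7% the ETS letters and 14% the RUNX letters, so a match in a window is common. Of the 10 members, 8 had a promoter in the table.

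The enzymes that compete with St6gal1 for the galactose ends of N-glycans, St3gal3, St3gal4 and St3gal6, had smaller differences between populations. St3gal4 was at 13.1, 12.7 and 14 FPKM in HC GFP+, 13.8, 14.2 and 13.6 in HC GFP−, 12.5, 12.3 and 13.6 in EC GFP+, and 15.9, 14.1 and 15.1 in EC GFP−. The spread between libraries was small, and only the EC separated by GFP, with a difference of −0.22 ± 0.08 that did not pass (adjusted p = 0.104). St3gal3 averaged 9.02 ± 1.01 FPKM in HC GFP+, 10.5 ± 1.18 in HC GFP−, 11 ± 0.13 in EC GFP+ and 12.3 ± 0.84 in EC GFP−, and its largest difference, −0.26 ± 0.11 between HC GFP+ and EC GFP+, did not pass (adjusted p = 0.134). St3gal6 ranged from 6.1 to 15.8 FPKM and was the noisiest member, with an SD of up to 35% of the mean within a population. None of the 3 genes passed in any comparison.

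The balance between St6gal1 and these enzymes followed the St6gal1 level. St6gal1 divided by the summed FPKM of St3gal3, St3gal4 and St3gal6 was 1.37, 1.24 and 1.39 in HC GFP+, 0.857, 0.76 and 0.894 in HC GFP−, 1.73, 1.85 and 1.5 in EC GFP+, and 0.537, 0.559 and 0.489 in EC GFP−. A ratio within a library does not depend on the scaling of that library. It was above 1 in each GFP+ library and below 1 in each GFP− library, and since St6gal1 was chosen by its values this is a description. Of the summed FPKM of the 10 members, St6gal1 held 21.1 ± 1.49% in HC GFP+, 17.2 ± 1.28% in HC GFP−, 24.8 ± 0.86% in EC GFP+ and 12.2 ± 0.939% in EC GFP−. The 6 genes for the α2,3 bond together held 51.5 ± 2.54%, 52 ± 1.58%, 50.4 ± 0.92% and 53.6 ± 2.59% in the same order.

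**Figure D2:**
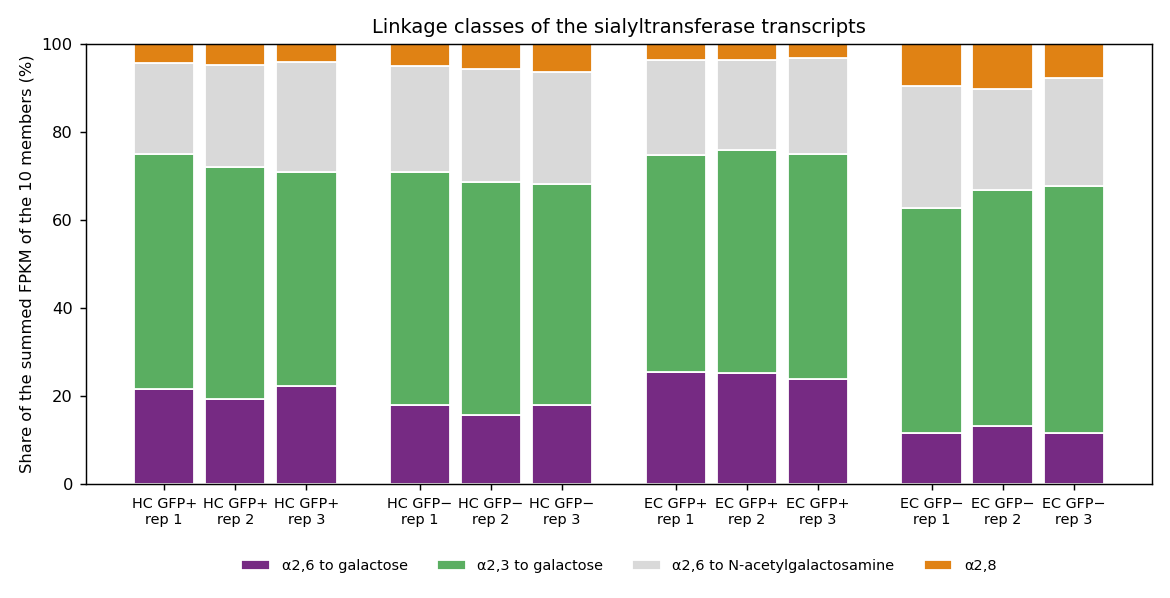
Share of the summed FPKM of the 10 members (percent, vertical axis) by the bond each enzyme makes, in each of 12 libraries. The part of St6gal1 (bottom) is 23.9 to 25.4% in EC GFP+ and 11.5 to 13.3% in EC GFP−, and the α2,3 part stays between 48.6 and 56.3%. The α2,8 part (top), which is St8sia4 alone, is 3.28 to 3.72% in EC GFP+ and 7.82 to 10.2% in EC GFP−. Genes outside the 10 are left out, among them St6galnac3, St8sia6 (mean 6.32 FPKM in EC GFP+ and 1.47 in EC GFP−) and St8sia1 (5.43 and 5.84), so the shares are not those of all enzymes for a bond.

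To ask which members moved with the Ly6a reporter in clusters, HC GFP+ were compared with HC GFP−. Of the 9 members other than St6gal1, 1 rose, none fell and 8 did not pass, against 2.98% of all tested genes higher and 1.28% lower. The member that rose was St3gal1, which encodes the enzyme that caps core 1 O-glycans with an α2,3 bond. St3gal1 was at 26.2, 29.8 and 26 FPKM in HC GFP+ and at 17.4, 18.1 and 15.4 in HC GFP−. The groups did not overlap and differed by 0.66 ± 0.09 (adjusted p = 0.00254). St3gal5, the synthase of the ganglioside GM3, was at 28.9, 28.7 and 29.3 FPKM in HC GFP+ and at 23.8, 27.7 and 23.5 in HC GFP−, a difference of 0.21 ± 0.08 that did not pass (adjusted p = 0.23). The median difference of the 9 members was 0.043, and that of all tested genes 0.0014.

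The same question in endothelium, EC GFP+ against EC GFP−, gave more calls. Of the 9 members 3 rose, 1 fell and 5 did not pass, against 6.96% of all tested genes higher and 6.51% lower. St3gal1 was at 22.6, 23.9 and 23 FPKM in EC GFP+ and at 14.1, 14.2 and 11.9 in EC GFP− (difference 0.75 ± 0.09, adjusted p = 0.000545). St3gal1 thus rose with GFP in clusters and in endothelium alike. St3gal2, which acts on the same O-glycan core and on gangliosides, was at 19.9, 20.2 and 19.3 FPKM in EC GFP+ and at 14.2, 13.2 and 13.3 in EC GFP− (difference 0.52 ± 0.09, adjusted p = 0.00492). St3gal5 was at 37.5, 34.8 and 39.9 FPKM in EC GFP+ and at 22.5, 24.3 and 25.3 in EC GFP− (difference 0.62 ± 0.08, adjusted p = 0.000887). For none of these 3 genes did an EC GFP+ library overlap with an EC GFP− library. The median of the 9 members was 0.16, beside −0.034 over all tested genes.

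The member that fell was St8sia4, the polysialyltransferase that builds long α2,8 chains on carriers such as NCAM. It was at 8.58, 7.7 and 7.65 FPKM in EC GFP+ and at 16.5, 17.7 and 12.1 in EC GFP− (difference −0.86 ± 0.14, adjusted p = 0.00249). Both HC populations were near the level of EC GFP+, with 8.24, 9.51 and 8.38 FPKM in HC GFP+ and 8.58, 9.96 and 10.9 in HC GFP−. HC GFP+ overlapped with both of the others, while the HC GFP− libraries lay just above those of EC GFP+. St8sia4 was thus high in the population in which St6gal1 was lowest. When libraries were scaled to an equal sum the median of all tested genes moved to 0.14 between EC GFP+ and EC GFP−, and the 4 calls and their directions were kept.

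**Figure D3:**
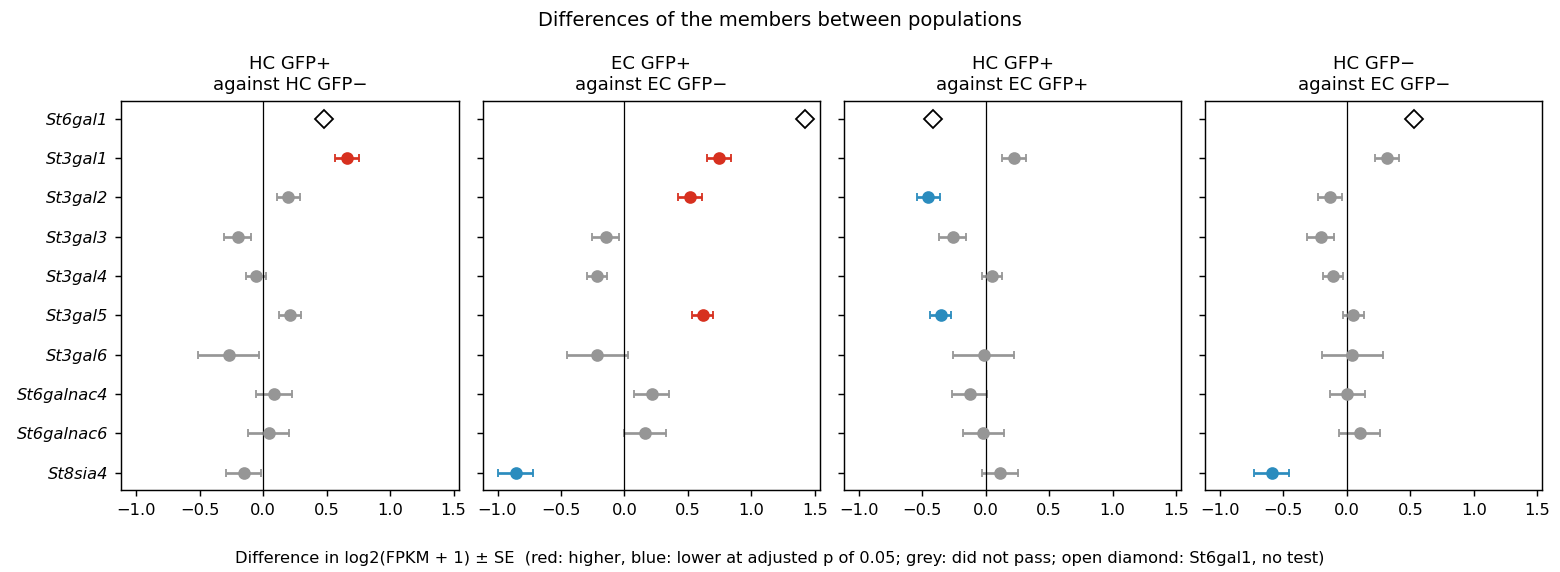
Differences in log2(FPKM + 1) ± SE (horizontal axes) of the 10 members in 4 comparisons; red points were called higher, blue lower, and grey points did not pass. St3gal1 is called in both comparisons of GFP+ with GFP− cells (0.66 in HC and 0.75 in EC), and St6gal1, an open diamond with no test, changes side between the 2 comparisons of HC with EC (−0.41 and 0.53).

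Cluster cells were then compared with endothelium within each GFP state. Between HC GFP+ and EC GFP+, 2 of the 9 members fell, none rose and 7 did not pass, against 6.09% of all tested genes lower and 8.21% higher. The 2 were St3gal2, with 15.7, 14 and 13 FPKM in HC GFP+ and 19.9, 20.2 and 19.3 in EC GFP+ (difference −0.45 ± 0.09, adjusted p = 0.00843), and St3gal5, with 28.9, 28.7 and 29.3 FPKM in HC GFP+ and 37.5, 34.8 and 39.9 in EC GFP+ (difference −0.35 ± 0.08, adjusted p = 0.0167). St3gal5 no longer passed when HC GFP+ replicate 1 (−0.35), EC GFP+ replicate 1 (−0.35) or EC GFP+ replicate 3 (−0.31) was left out. The median of the 9 members was −0.019, beside 0.052 over all tested genes.

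Between HC GFP− and EC GFP−, 1 of the 9 members fell, none rose and 8 did not pass, against 1.93% of all tested genes lower and 2.36% higher. It was St8sia4, at 9.82 ± 1.18 FPKM in HC GFP− and 15.4 ± 2.95 in EC GFP− (difference −0.59 ± 0.14, adjusted p = 0.0388). The groups did not overlap, but this call ended in 13 of 20 alternatives, in which the difference was −0.67 to −0.46. The call held only when the library left out was replicate 2 or 3 of HC GFP+, or replicate 3 of EC GFP−, and ended without any other. St3gal1 was at 17.4, 18.1 and 15.4 FPKM in HC GFP− and at 14.1, 14.2 and 11.9 in EC GFP−, a difference of 0.32 ± 0.09 that did not pass (adjusted p = 0.0926). The median of the 9 members was 0.0039, beside 0.014 over all tested genes.

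Whether GFP moved a member differently in HC and EC was tested as the difference of the 2 GFP effects. With limma 0 of the 9 members passed, against 0.188% of all tested genes higher and 0.339% lower, and at an unadjusted p under 0.05 1 was higher and 2 were lower. These were St8sia4 (0.70 ± 0.20, adjusted p = 0.157), St3gal5 (−0.41 ± 0.12, adjusted p = 0.188) and St3gal2 (−0.32 ± 0.13, adjusted p = 0.39). So the GFP effects on these genes were not shown to differ between the cell types. For St3gal1 the difference was −0.09 ± 0.13 (adjusted p = 0.876).

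St6galnac4 and St6galnac6, which put sialic acid in α2,6 bonds on N-acetylgalactosamine of O-glycans and gangliosides, did not pass in any comparison. St6galnac4 ranged from 18.1 to 26.8 FPKM and St6galnac6 from 16.8 to 26.3 FPKM over the 12 libraries, and the groups overlapped in each of the 4 comparisons of populations for both genes. The differences between populations were −0.13 to 0.21 for St6galnac4 and −0.02 to 0.16 for St6galnac6, with an SE of 0.14 and 0.16. In RefSeq they are neighbours with no protein-coding gene between them. Only their order was examined, so whether reads could be given to either gene is not known.

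Of the 10 other sialyltransferase genes 5 passed the filter on low values. The rest, St6gal2, St6galnac1, St6galnac5, St8sia3 and St8sia5, stayed under 1 FPKM in every library, and St6galnac1 was listed at 0 in 11 of 12. St6galnac3, which sialylates O-glycans and gangliosides, was as abundant as many members. It was at 19.4, 25 and 14.7 FPKM in HC GFP+ and at 37.2, 32.7 and 36 in EC GFP+ (difference −0.84 ± 0.17, adjusted p = 0.00797). St8sia6, an α2,8 enzyme that makes short chains, was at 0.532, 0.619 and 0.815 FPKM in HC GFP+, 0.124, 0.329 and 0.505 in HC GFP−, 8.19, 6.59 and 4.18 in EC GFP+, and 1.66, 1.87 and 0.876 in EC GFP−. It reached 1 FPKM only in EC, so it passed the filter through the groups where it is high, and its levels in HC and EC are given with no test. Within EC all 3 EC GFP+ libraries were over 1 FPKM but not all of EC GFP−. The difference of St8sia6 between EC GFP+ and EC GFP− (1.55) is therefore given with no test too. St8sia4 was thus lower and St8sia6 higher in EC GFP+ than in EC GFP−, which for St8sia6 is a description. St8sia1, the synthase of the ganglioside GD3, ranged from 4.53 to 6.7 FPKM and did not pass in any comparison, nor did St6galnac2 and St8sia2.

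No gene that supplies the donor passed the test. The list of sialic acid supply holds Gne and Nans, which make sialic acid, Nanp, Cmas, which activates it, the Golgi transporter gene Slc35a1 and the hydroxylase gene Cmah. With limma 0 of these 6 passed in any of the 5 comparisons. At an unadjusted p under 0.05, 1 was higher between HC GFP+ and HC GFP− and 1 lower between EC GFP+ and EC GFP−. Cmas averaged 67.1 ± 2.8 FPKM in HC GFP+, 57.6 ± 5.26 in HC GFP−, 64.3 ± 3.67 in EC GFP+ and 63 ± 1.93 in EC GFP−. Slc35a1 averaged 12.6, 11.1, 11.4 and 12.8 FPKM in the same order. Of 8 genes that release or recycle sialic acid 6 were tested. In that list 1 rose between HC and EC in each GFP state, against 8.21% of all tested genes among GFP+ cells and 2.36% among GFP− cells. This was Npl, the lyase that breaks down free sialic acid. It averaged 35.5 ± 14.9 FPKM in HC GFP+ against 11.8 ± 2.04 in EC GFP+ (1.45, adjusted p = 0.00898), and 33.6 ± 12.5 in HC GFP− against 8.75 ± 0.934 in EC GFP− (1.76, adjusted p = 0.0112), where it no longer passed if HC GFP− replicate 1 or 3 was left out. The HC libraries also held more transcripts of macrophages, as given above, and the part of these in the Npl levels was not tested.

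Enzymes that build the acceptor chains were compared as lists. Of 14 N-glycan genes 1 rose and none fell between EC GFP+ and EC GFP−, a share near the 6.96% of all tested genes that were higher. In HC, 2 rose and 1 fell with GFP, against 2.98% and 1.28% of all tested genes. B4galt1, which adds the galactose that St6gal1 caps, averaged 41.6 ± 0.672 FPKM in EC GFP+ and 28.6 ± 1.47 in EC GFP− (0.53, adjusted p = 0.000698), and 36.4 ± 2.39 in HC GFP+ and 28.6 ± 0.631 in HC GFP− (0.34, adjusted p = 0.019). The call in HC ended in 6 of 20 alternatives, 5 of them without an HC library (HC GFP+ replicate 1 or 3, or any of HC GFP−). Fut8, the core fucosyltransferase, was higher in HC GFP+ than in HC GFP− (0.89, adjusted p = 0.00493) and than in EC GFP+ (0.85, adjusted p = 0.00295). B4galt2 was lower in HC GFP+ than in HC GFP− (−0.58, adjusted p = 0.0273), which was lost in 6 of 20 alternatives, among them without HC GFP+ replicate 3 or any of HC GFP−. Of 10 tested O-glycan genes 2 rose and none fell in each comparison of GFP+ with GFP− cells. B3gnt3, which extends core 1 chains, averaged 10.8 ± 1.83 FPKM in EC GFP+ and 3.33 ± 0.537 in EC GFP− (1.44, adjusted p = 0.000309), and 8.38 ± 0.23 in HC GFP+ and 3.07 ± 0.76 in HC GFP− (1.22, adjusted p = 0.00197). The other was Galnt4, which starts O-glycans (0.69, adjusted p = 0.000832 in EC, and 0.37, adjusted p = 0.0499 in HC, lost in 18 of 20 alternatives). Of 9 tested ganglioside genes none passed between GFP+ and GFP− cells of either type with limma, though 3 were higher in each at an unadjusted p under 0.05. Between HC GFP+ and EC GFP+, where 8.21% of all tested genes were higher, Gm2a of the same list rose. Gm2a, the activator of GM2 breakdown, averaged 8.02 ± 3.31 FPKM in HC GFP+ and 2.57 ± 0.185 in EC GFP+ (1.27, adjusted p = 0.0129). B4galnt1, the GM2 synthase, was at 2.46 ± 1.13 FPKM in HC GFP+ and 0.342 ± 0.29 in EC GFP+. It passed the filter only through HC libraries, so these levels are given with no test.

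The proteins that carry or read sialic acid were examined as lists too. Of 8 tested proteins studied as carriers of α2,6 sialic acid, 6 rose between EC GFP+ and EC GFP− (median 0.45), against 6.96% of all tested genes, and none passed between HC GFP+ and HC GFP− with limma, where 2 were higher at an unadjusted p under 0.05 (median 0.15). Between HC GFP+ and EC GFP+ 1 rose (Ptprc) and 3 fell (Met, Pecam1 and Itgb1), against 8.21% of all tested genes higher and 6.09% lower. Between HC GFP− and EC GFP− 1 rose (Ptprc) and 1 fell (Pecam1), against 2.36% higher and 1.93% lower. This last call of Pecam1 ended in 13 of 20 alternatives. Ptprc was low in EC. In the alternatives its difference rose from 2.92 to as much as 4.20 among GFP+ cells, and from 2.49 to as much as 4.90 among GFP− cells. It may have passed the filter through HC libraries, where it is high, so no reading is taken from its calls. Kdr and Pecam1 are endothelial genes. Of the other endothelial markers Tek (1.19), Tie1 (0.65), Eng (0.59), Emcn (0.62), Ramp2 (0.95) and Cdh5 (0.48) also rose between EC GFP+ and EC GFP−. Flt1 (0.34), Egfl7 (0.29), Cldn5 (0.33), Esam (0.34) and Robo4 (−0.16) did not pass there. The part of endothelial genes in the count was not tested. Itgb1, the integrin β1 chain, averaged 405 ± 12.5 FPKM in EC GFP+ and 295 ± 27.2 in EC GFP− (0.46, adjusted p = 0.00355). Met, the receptor of hepatocyte growth factor, averaged 4.36 ± 0.419 FPKM in EC GFP+ and 1.55 ± 0.319 in EC GFP− (1.08, adjusted p = 0.00131). Between EC GFP+ and EC GFP−, the call of Pecam1 (0.37, adjusted p = 0.0485) ended in 12 of 20 alternatives, including without any 1 of the EC GFP+ libraries. In the same comparison the call of Fas ended in 2 of 19, that of Tnfrsf1a in 6 of 20 and that of Kdr in 10 of 20. Of 5 genes of the Bace and Sppl protease families 3 rose between EC GFP+ and EC GFP−, in the comparison in which 6.96% of all tested genes did. They were listed for release of St6gal1 from the Golgi, which was not tested for any of them. Sppl3 averaged 72.8 ± 0.345 FPKM in EC GFP+ and 46.5 ± 8.37 in EC GFP− (0.65, adjusted p = 0.00492), and Bace1 12 ± 0.992 FPKM in EC GFP+ and 8.55 ± 1.13 in EC GFP− (0.45, adjusted p = 0.0241). Bace1 lost its call in 4 of 20 alternatives, including without EC GFP+ replicate 1 or 3 or EC GFP− replicate 3, and Bace2 (0.50, adjusted p = 0.0265) in 8, including without any 1 of these or EC GFP+ replicate 2 or EC GFP− replicate 1. Of 4 tested carriers of polysialic acid, the product of St8sia4, 1 rose between HC GFP− and EC GFP−, against 2.36% of all tested genes. This was Nrp2, neuropilin-2, at 108 ± 4.3 FPKM in HC GFP− and 67.6 ± 11.5 in EC GFP− (0.69, adjusted p = 0.00857), and with limma none passed in the other comparisons, where at an unadjusted p under 0.05 2 were lower in HC GFP+ than in HC GFP−, 1 was higher in EC GFP+ than in EC GFP−, and 1 was lower in the difference of effects.

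The list of selectins and their sialylated ligands had calls in each comparison of 2 populations. It also holds the fucosyltransferase gene Fut4, the 1 gene that fell between EC GFP+ and EC GFP− (−0.80, adjusted p = 0.0069). Of 9 tested genes of that list 5 rose and none fell between HC GFP+ and HC GFP−, 6 rose and 1 fell between EC GFP+ and EC GFP−, 4 rose and 2 fell between HC GFP+ and EC GFP+, and 2 rose and 2 fell between HC GFP− and EC GFP−. Of all tested genes, 2.98% were higher and 1.28% lower in the first of these comparisons, 6.96% and 6.51% in the second, 8.21% and 6.09% in the third, and 2.36% and 1.93% in the fourth. In the fourth each call was lost in some alternatives, Cd44 in 13 of 20, Cd34 in 8, Podxl in 6 and Selplg in 3 of 19. In the second, Glg1 was lost in 15 of 20, Podxl in 6 of 20 and Fut4 in 1 of 19. Cd44 was lost in 3 of 20 in the third, and Selplg in 2 of 19 in the first. Selp and Selplg were low in some groups. In the alternatives the difference of Selp between HC GFP+ and HC GFP− rose from 1.66 to as much as 3.63. That of Selplg between HC GFP− and EC GFP− rose from 1.35 to as much as 3.31. Both may have passed the filter through groups where they are high, so no reading is taken from their part in these counts. Spn, the heavily sialylated CD43, averaged 9.86 ± 1.41 FPKM in HC GFP+, 0.673 ± 0.0962 in HC GFP−, 1.94 ± 0.425 in EC GFP+ and 0.267 ± 0.0243 in EC GFP−. Both GFP− means were under 1 FPKM, so Spn passed the filter through the GFP+ groups, where it is high. Spn is among the 5 genes that rose in HC and the 6 that rose in EC. The difference of its GFP effects, HC minus EC, was 1.49 and is given with no test. It was 1.38 when HC GFP+ replicate 2 was left out and 1.23 with a pseudocount of 0.1. Podxl, the sialomucin podocalyxin, averaged 69 ± 3.77 FPKM in HC GFP+ and 120 ± 3.63 in EC GFP+ (−0.79, adjusted p = 0.00115). Of 11 sialic acid binding lectins 4 passed the filter, Siglec1, Cd33, Siglece and Siglech, and only through HC libraries, so no count is read from them. Siglec1 averaged 2.99 ± 2.4 FPKM in HC GFP+ and 1.04 ± 0.487 in HC GFP−, against 0.0566 ± 0.0561 in EC GFP+ and 0.0477 ± 0.0416 in EC GFP−. They are genes of macrophages and related cells, the macrophage markers were higher in all HC libraries, and the part of these cells was not tested. Of 7 galectin genes, whose products bind galactose ends, and Lgals3bp, which encodes a ligand of galectins, 1 rose with GFP in HC and in EC. Of all tested genes 2.98% and 6.96% did. Of the 8, 4 rose between HC GFP+ and EC GFP+, Lgals9, Lgals4, Lgals8 and Lgals3bp, against 8.21% of all tested genes, but without HC GFP+ replicate 3 only Lgals9 of these 4 passed. Lgals9, known to bind chains that α2,6 sialic acid can mask, averaged 63.7 ± 22.3 FPKM in HC GFP+ and 16.7 ± 6.08 in HC GFP− (1.88, adjusted p = 0.00377), and 22 ± 3.94 in EC GFP+ and 7.56 ± 1.67 in EC GFP− (1.43, adjusted p = 0.00894).

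The pattern of St6gal1 over the 12 libraries was shared by other genes. Among 8881 genes with a mean of 5 FPKM or more, Npc1, a cholesterol transporter of the lysosome, was most like it (Pearson r = 0.97), followed by Trim8, a ubiquitin ligase (r = 0.96), Bcl9l, a coactivator of β-catenin (r = 0.96), Plaur, the urokinase receptor (r = 0.96), and Hs3st1, a heparan sulfate sulfotransferase (r = 0.94). Hs3st1 averaged 18.8 FPKM in HC GFP+, 8.54 in HC GFP−, 22.3 in EC GFP+ and 6.3 in EC GFP−, and Plaur 14.9, 11, 20.7 and 9.08 in the same order. The means of all 5 genes fell in the same order of populations as those of St6gal1. The likeness describes these 12 libraries, which share their scaling, and carries no test. Of the members, St3gal5 (r = 0.86) and St3gal1 (r = 0.84) were the nearest to St6gal1, and St8sia4 (r = −0.82) and St3gal4 (r = −0.81) the farthest.

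**Figure D4:**
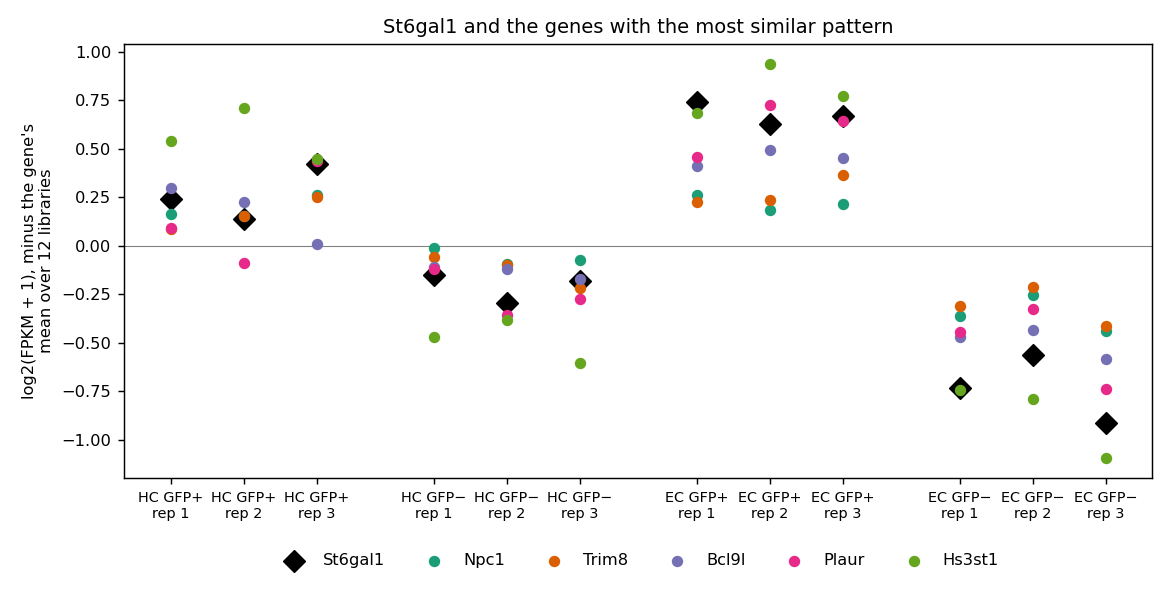
log2(FPKM + 1) of St6gal1 (black diamonds) and of the 5 genes most like it, each minus its own mean over the 12 libraries, by library. The genes lie above their means in the GFP+ libraries, other than Plaur in HC GFP+ replicate 2, and below them in the GFP− libraries of HC and, farther, of EC.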

How the data were processed

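The authors deposited FPKM per gene symbol for each of the 12 libraries, from poly(A)-selected RNA per the labels' protocols. The tools named are DESeq, edgeR, featureCounts and Cufflinks, and the build is mm9, per the submitters' processing notes. What each was used for, the aligner, the annotation and any strand setting: not given in the sources used here. Depth is unknown, so no count test was run.

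The filter kept 13278 genes that reached 1 FPKM in 3 or more libraries. Their log2(FPKM + 1) values went into limma 3.58.1 (R 4.3.3) as 4 group means with 8 residual degrees of freedom, an intensity trend and empirical Bayes moderation. Tests were two-sided, with Benjamini-Hochberg adjustment over all tested genes of each of 5 comparisons. The scripts were tested on simulated data. The members and lists were chosen with earlier results of these data known. The rule for named genes took all members, the other sialyltransferases by range, up to 4 called genes per list and comparison in the order of p, and the 5 genes with a mean of 5 FPKM or more most like St6gal1. The text gives some of the list genes it takes; genes of a list that did not pass, the lymphoid markers, and Sptb and Fbn2 were chosen after their values were seen. The alternatives were a pseudocount of 0.1, no filter, a filter on mean FPKM (5 and above), scaling to an equal sum, quantile normalization, no intensity trend, a replicate block, fits of only the 2 groups compared, and leaving out each library. Replicates are pools of embryos. Promoter sequences are from RefSeq (GRCm38.p6).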

Additional observations from a re-analysis of the deposited data

Results flagged for a closer look

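The difference of St6gal1 between cluster cells and endothelium was −0.41 between HC GFP+ and EC GFP+ and 0.53 between HC GFP− and EC GFP− on the log2 scale, with each HC library below each EC library among GFP+ cells and above it among GFP− cells. These opposite directions are what St6gal1 was chosen by, and their difference was not tested. For Spn, the difference of the GFP effects, HC minus EC, was 1.49, and 1.23 with a pseudocount of 0.1. It is given with no test, since Spn averaged under 1 FPKM in both GFP− populations and passed the filter through the GFP+ groups. Spn was higher in the GFP+ libraries of both types.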

How the results depend on the processing

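The directions of the 4 St6gal1 differences were kept in all alternatives run. Leaving out 1 library gave 0.40 to 0.54 between HC GFP+ and HC GFP−, 1.33 to 1.51 between EC GFP+ and EC GFP−, −0.49 to −0.35 between HC GFP+ and EC GFP+, and 0.44 to 0.61 between HC GFP− and EC GFP−. Scaling to an equal sum gave 1.62 between EC GFP+ and EC GFP−, as that scaling moved the median of all genes there to 0.14. It also moved the share of calls that were higher to 87 from 51.6% in that comparison, to 81.8 from 55% between HC GFP− and EC GFP−, and to 18.9 from 35.7% for the difference of effects, and quantile normalization moved it to 47.1 from 57.4% between HC GFP+ and EC GFP+.

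The count of members called was 1 of 9 between HC GFP+ and HC GFP− and 4 between EC GFP+ and EC GFP− in all alternatives. Between HC GFP+ and EC GFP+ it was 1 to 2 when 1 library was left out. Between HC GFP− and EC GFP− it was 0 with no filter, with the replicate block and with only the 2 groups compared, and 0 to 1 when 1 library was left out; scaled to an equal sum, St3gal1 (0.45) passed in place of St8sia4. For the difference of effects it was 0 throughout. Of 891 values of the 9 members under alternatives, 33 that passed neither there nor in the fit reported had the other sign. Over all genes the calls, 566 between HC GFP+ and HC GFP− and 1789 between EC GFP+ and EC GFP−, were 363 with the stricter filter and 939 with only the 2 groups, and 321 to 654 and 1004 to 2203 when 1 library was left out. The other counts were 1898 (1261 to 2090) between HC GFP+ and EC GFP+, 569 (91 to 698, 332 with no filter and 284 with only the 2 groups) between HC GFP− and EC GFP−, and 70 (23 to 77, 148 scaled to an equal sum, 39 with the pseudocount of 0.1 or the stricter filter) for the difference of effects. The cause of these shifts was not tested.

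Whether the replicate numbers pair the samples was not settled. Of 18 pairs with the same number 4 had a correlation of deviations over 0.1 (−0.084 to 0.27), and pairs with other numbers ranged from −0.22 to 0.22. Of 12 libraries, 6 correlated best with their own number. The replicate block left the 4 St6gal1 differences at 0.48, 1.42, −0.41 and 0.53 and changed no call of a member other than that of St8sia4 given above. With no read numbers, the depth that limits weakly expressed members is unknown.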
